A study of Mus musculus with 4 samples.

Results

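The copy number of 9 mouse genes for growth factor signalling was read in 4 liver tumours: Hgf, Met, Egfr, Erbb2, Fgfr1, Fgfr2, Fgfr3, Fgfr4 and Braf. A gene's probes were those that carry its name on the array, and the search was for focal gain, a gene that stands above the DNA around it. The 9 genes made up 9 of 18699 named genes, and 69 of 170260 probes.

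Genomic DNA came from liver tumours of 4 Fah-/- Trp53-/- mice, tumours 239, 240, 244 and 252. These mice lack the p53 tumour suppressor and fumarylacetoacetate hydrolase, with which tyrosine breakdown ends, and survive on NTBC, which stops that breakdown further upstream. Full-dose drinking water held 7.5 mg/L NTBC, and the mice were kept for 6 months on 2.5% of that dose. Each tumour, labelled with Cy5, was hybridised against 1 pool of Cy3-labelled liver DNA from 3 Fah+/+ Trp53+/+ littermates, on a 2-colour array for comparative genomic hybridisation. The mice and the littermates are all labelled male. Strain and age were not used here, and no normal liver was set against another normal liver on an array.

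Hepatocyte growth factor binds the receptor tyrosine kinase Met, and together they drive hepatocyte growth and liver regeneration. Egfr and Erbb2, of the epidermal growth factor receptor family, and the fibroblast growth factor receptors also pass their signal through RAS to the RAF kinases, of which Braf is one, and on to MEK and ERK. In cancers such genes can be amplified as a short stretch of DNA, with many copies of the gene and few neighbours.

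Values throughout are the log2 of tumour over pool signal, with the autosomal median of each array set to 0. A single-copy gain in every cell of a diploid tumour would give 0.58, and a loss of 1 of 2 copies -1. Neither ploidy nor the share of normal cells in a tumour was measured, and fewer gained cells cannot be told apart from fewer copies per cell. For each gene 3 quantities were taken: the mean over its own probes, the mean over the other probes within 1 Mb on either side (its neighbourhood), and the difference, called local excess. Each was tested against 0 over the 4 tumours with limma across all genes, with Benjamini-Hochberg adjustment and a threshold of 0.05. Since the pool is a single control sample used on all 4 arrays, the tests take no account of how control livers vary.

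Each array gave 170288 to 170302 probes, with 98.8% to 99.9% of spots well above background. The SD of a probe, taken from the differences between adjacent probes, was 0.31 to 0.39. It includes offsets that a probe repeats on every array, so it is not noise alone. In tumour 244 whole chromosomes, 6 and 8 among them, stood off 0, and the most common level of its probes lay 0.11 above the median it was centred on, against -0.00 to 0.01 in the other tumours. Probes on X had a median of -0.09, -0.11, -0.30 and 0.73, and those on Y one of -0.31, -0.14, -1.20 and -2.43, in tumours 239, 240, 244 and 252. Tumour 252 therefore went against its male label, and calls of the genes named are also given without it. The 2 probes of Fah averaged 0.04 ± 0.20 and the 2 of Trp53 averaged 0.07 ± 0.01 (SD, n = 4). Whether they lie in the deleted parts was not tested, so they check nothing.

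A few single probes carry the results below, and their sequences are shown for that reason. Positions are those of mm9 as the files give them, each probe has 60 bases, and capitals mark G and C. The strand, and whether a probe lies in an exon or an intron, were not read, since no genome or annotation of this build was used here.
Erbb2 first probe, chr11:98278506-98278565: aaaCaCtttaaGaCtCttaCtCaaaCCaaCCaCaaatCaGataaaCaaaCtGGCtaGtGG
Erbb2 second probe, chr11:98287914-98287973: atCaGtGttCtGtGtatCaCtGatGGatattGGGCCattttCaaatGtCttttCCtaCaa
Hgf low probe, chr5:16073530-16073589: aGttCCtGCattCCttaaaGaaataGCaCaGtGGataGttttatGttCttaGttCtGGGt
Egfr low probe, chr11:16686623-16686682: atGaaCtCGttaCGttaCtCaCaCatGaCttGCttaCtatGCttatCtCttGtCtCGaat
Egfr low probe, chr11:16698730-16698789: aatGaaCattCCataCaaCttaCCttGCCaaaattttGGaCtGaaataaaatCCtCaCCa
The 2 Erbb2 probes and the Hgf probe each hold 22 G or C bases, or 36.7%, which is also the median over all probes of the array. The 2 Egfr probes hold 38.3% and 33.3%.

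Of the 9 genes, Erbb2 alone was called above its neighbourhood, and its excess rested on 1 of its 2 probes. Hgf and Fgfr4 were called below theirs, by small amounts, and Met, Egfr, Braf, Fgfr1, Fgfr2 and Fgfr3 were not called. By local excess, limma thus called 1 gene above 0 and 2 below it. Over all genes it called 25.3% above and 22.4% below, 47.7% in either direction, so 3 of 9 is no more than the share among all genes. By the gene's own log2 ratio the same 3 genes were called, 1 above and 2 below, where 17.6% and 15.1% of all genes were, 32.7% in either direction. Without tumour 252 this ratio was 0.64 for Erbb2 and -0.27 for Fgfr4, both called, and -0.17 for Hgf, which was not (limma adjusted p = 0.000172, 0.0380 and 0.157). None of the 9 neighbourhoods was called by limma (1, that of Fgfr3, at an unadjusted p under 0.05), against 9.15% of those of all genes, 5.41% above and 3.74% below. These shares changed with the tumours used. With all 4, 1012 and 699 genes were called above and below. Without tumour 239 or 252 it was 0 of either, and without tumour 244 it was 2523 and 1762. Fewer tumours also weaken the test. At an unadjusted limma p under 0.05, 3164 were above and 2012 below with all 4. Without tumour 239 these were 2311 and 1263, and without tumour 252 they were 1862 and 2134. Local excess had the same sign in all 4 tumours in 1 gene above (Erbb2) and 2 below (Hgf and Fgfr4), where 32.7% and 28.1% of all genes did. The median local excess of the 9 genes was -0.05, and that of all genes 0.01.

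**Figure D1:**
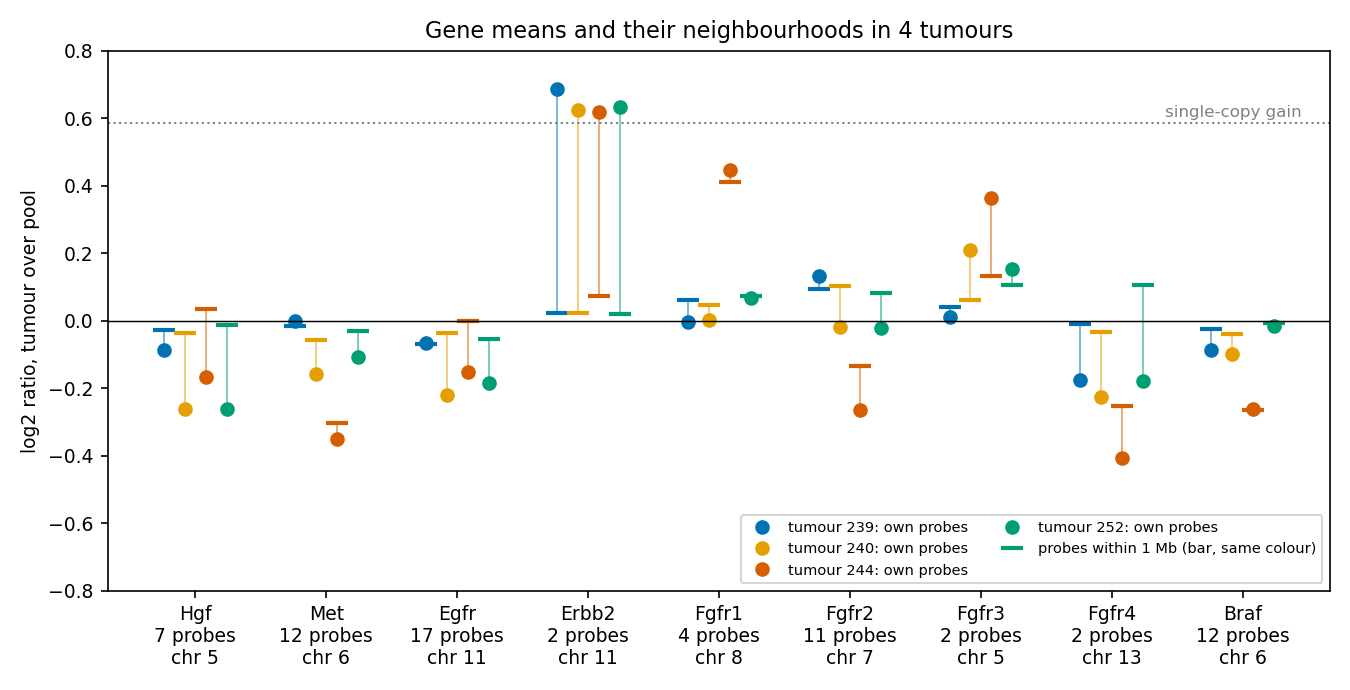
Log2 ratio of tumour over pool (vertical axis) for the 9 genes (horizontal axis, with the number of probes and the chromosome). Points are the mean of a gene's own probes in 1 tumour, bars of the same colour the mean of the other probes within 1 Mb, and the dotted line a single-copy gain at 0.58. Only Erbb2 has its 4 points over that line, at 0.62 to 0.69, far above bars at 0.02 to 0.07, while in tumour 244 the Fgfr1 point at 0.45 sits beside its bar at 0.41.

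Hgf encodes the ligand of Met. Its 7 probes span chr5:16062948-16124926, and the gene averaged -0.09, -0.26, -0.17 and -0.26 in tumours 239, 240, 244 and 252. It was below 0 in all 4 tumours, on average -0.19 ± 0.09 (SD, n = 4; limma adjusted p = 0.042). Its neighbourhood lay near 0 at -0.03, -0.04, 0.03 and -0.01. The local excess was -0.06, -0.23, -0.20 and -0.25, a mean of -0.18 with a 95% interval of -0.29 to -0.08 (limma adjusted p = 0.0156). One probe decided this value. The low probe at chr5:16073530-16073589 read -1.04, -1.45, -1.34 and -1.37, on average -1.30. In every tumour this was beyond the -1 of a loss of 1 of 2 copies. The probes to either side of it averaged -0.07 and -0.07. Of all the array's probes, 0.546% were as low as this one on every array. Why it was low was not tested. With that probe left out, the mean excess of Hgf was 0.00. Hgf passed the test with 4 tumours but not without tumour 240, 244 or 252, where the adjusted p was 0.0678, 0.0640 and 0.0650. Its own log2 ratio did not pass when any of the 4 tumours was left out (limma adjusted p = 0.0508 to 0.178). With normexp background correction its mean excess was -0.01 (limma adjusted p = 0.872).

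The nearest gene before Hgf with a probe was Cacna2d1, a calcium channel subunit, 190 kb away, at -0.04 ± 0.03 over 43 probes (SD, n = 4). The nearest after it was Sema3c, a secreted guidance protein, 966 kb away, at 0.06 ± 0.06 over 15 probes. Both means lay near 0, but means over many probes cannot show whether a single probe there was as low as that of Hgf.

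Met, the receptor of hepatocyte growth factor, showed no focal gain in any tumour. Its 12 probes span chr6:17420090-17515946 and averaged -0.00, -0.16, -0.35 and -0.11, which gave -0.15 ± 0.15 as the mean (SD, n = 4; limma adjusted p = 0.132). In tumour 244 the neighbourhood was as low as the gene, at -0.30, against -0.01, -0.06 and -0.03 in tumours 239, 240 and 252. Chromosome 6 as a whole stood at -0.25 in tumour 244, against -0.03, -0.05 and -0.01. The local excess of Met was therefore small in every tumour, at 0.01, -0.10, -0.05 and -0.08. Its mean was -0.05, with a 95% interval of -0.14 to 0.03 (limma adjusted p = 0.246). The upper bound is far under the 0.58 of a single-copy gain in every cell.

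Single probes of Met differed from each other more than the tumours did. Their excess over the neighbourhood, averaged over tumours, ran from -0.53 to 0.39, with an SD between probes of 0.27. The SD between tumours within a probe was 0.14. Of the 12 probes, 4 were above and 3 below the neighbourhood on every array. The nearest gene after Met with a probe was Capza2, which encodes an actin capping subunit. It averaged -0.25, -0.29, -0.71 and -0.31 on 3 probes, lower than Met in all 4 tumours.

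Egfr encodes the receptor for epidermal growth factor, which is abundant on hepatocytes. Its 17 probes, the most of the 9 genes, span chr11:16656658-16813188 and averaged -0.07, -0.22, -0.15 and -0.18. The mean of -0.16 ± 0.07 (SD, n = 4) did not pass the test (limma adjusted p = 0.0739). Its neighbourhood stood at -0.07, -0.04, -0.00 and -0.05, so the local excess was 0.00, -0.18, -0.15 and -0.13. The mean excess was -0.12, with a 95% interval of -0.22 to -0.01 (limma adjusted p = 0.0627). No tumour had Egfr above its neighbourhood by more than 0.00. The 2 low probes shown above gave the lowest values of the gene, at a mean excess of -0.71 and -0.74. Among the other Egfr probes the mean excess ran from -0.41 to 0.23. Of all the array's probes, 2.50% and 2.87% were as low as these 2 on every array.

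Egfr passed the test under 7 of the alternatives, each time below 0, among them leaving out tumour 239 (-0.15, limma adjusted p = 0.0150), normexp (-0.14) and a window of 0.5 Mb (-0.17). The nearest gene before it with a probe, Sec61g, was low on its single probe, at -1.05, -0.96, -0.49 and -0.39. The 6 probes within 50 kb of Egfr that carry another name or none averaged -0.26 ± 0.04, while the 14 within 100 kb averaged -0.01 ± 0.02 (SD, n = 4).

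Erbb2, a receptor with no known ligand of its own that pairs with Egfr and Erbb3, was the highest of the 9 genes. Its 2 probes, in chr11:98278506-98287973, averaged 0.69, 0.62, 0.62 and 0.63 in tumours 239, 240, 244 and 252. The mean was 0.64 ± 0.03 (SD, n = 4; limma adjusted p = 0.000552). The 206 probes within 1 Mb stood at 0.02, 0.02, 0.07 and 0.02, and chromosome 11 as a whole at 0.00, 0.02, 0.07 and 0.02. Its local excess was 0.66, 0.60, 0.54 and 0.61, a mean of 0.61 with a 95% interval of 0.52 to 0.69 (limma adjusted p = 0.000311). It was almost the same in all 4 tumours. The mean lay around the level of a single-copy gain, but neither of the 2 probes did, at a mean excess of 1.10 and 0.10. The interval and the test cover the spread between tumours and not that between the 2 probes. Without tumour 252 the mean was 0.60 (limma adjusted p = 0.00345).

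The 2 Erbb2 probes did not show the same thing. The first read 1.34, 1.04, 1.16 and 1.01, and the second, 9 kb further on, read 0.04, 0.21, 0.08 and 0.26. Over their neighbours they had a mean excess of 1.10 ± 0.15 and 0.10 ± 0.12 (SD, n = 4). In signal, the first gave 3107, 2349, 2580 and 2148 units from tumour DNA and 1214, 1124, 1125 and 1075 units from the pool. The second gave 550, 745, 691 and 726 units from tumour DNA and 528, 635, 639 and 612 units from the pool. Both were well above background on every array in both colours. Of all probes on the array, 0.09% were as high as the first on every array. An alternative added after the data were seen left out probes that stood 0.5 or more off their neighbours on all 4 arrays. This rule removes the first probe by its own values, so its result is that of the second probe alone and no separate check. The excess of Erbb2 was then 0.10 and it was not called (limma adjusted p = 0.177).

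Erbb2 reached an excess of 0.58 in 3 of 4 tumours, and 4.26% of all genes and 3.21% of those with 2 probes did so in at least 1. A mean local excess at least that of Erbb2 was found in 0.957% of all genes and in 0.565% of the 3361 genes with 2 probes. It was found in 0.0572% of the 8739 genes with 3 or more, of which 0.0801% had a mean of 0.58 or more. In the DNA just around Erbb2, the 10 other probes within 50 kb averaged 0.25, 0.24, 0.24 and 0.19, and the 20 within 100 kb 0.09, 0.07, 0.06 and -0.03. The nearest gene before Erbb2 with a probe was Stard3, which encodes a cholesterol transporter. It averaged 0.34 ± 0.14 on 2 probes. Grb7, an adaptor gene and the nearest after Erbb2 with a probe, averaged 0.02 ± 0.15 on 1 probe (SD, n = 4). Stard3 and Grb7 are co-amplified with ERBB2 in human breast cancer. Single probes within 50 kb differed among themselves as well. Most were above 0 in all 4 tumours, and the others were mixed in sign or below 0. All 4 tumours were set against the same pool, and whether the high first probe comes from the tumours, from the pool or from the probe was not tested.

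**Figure D2:**
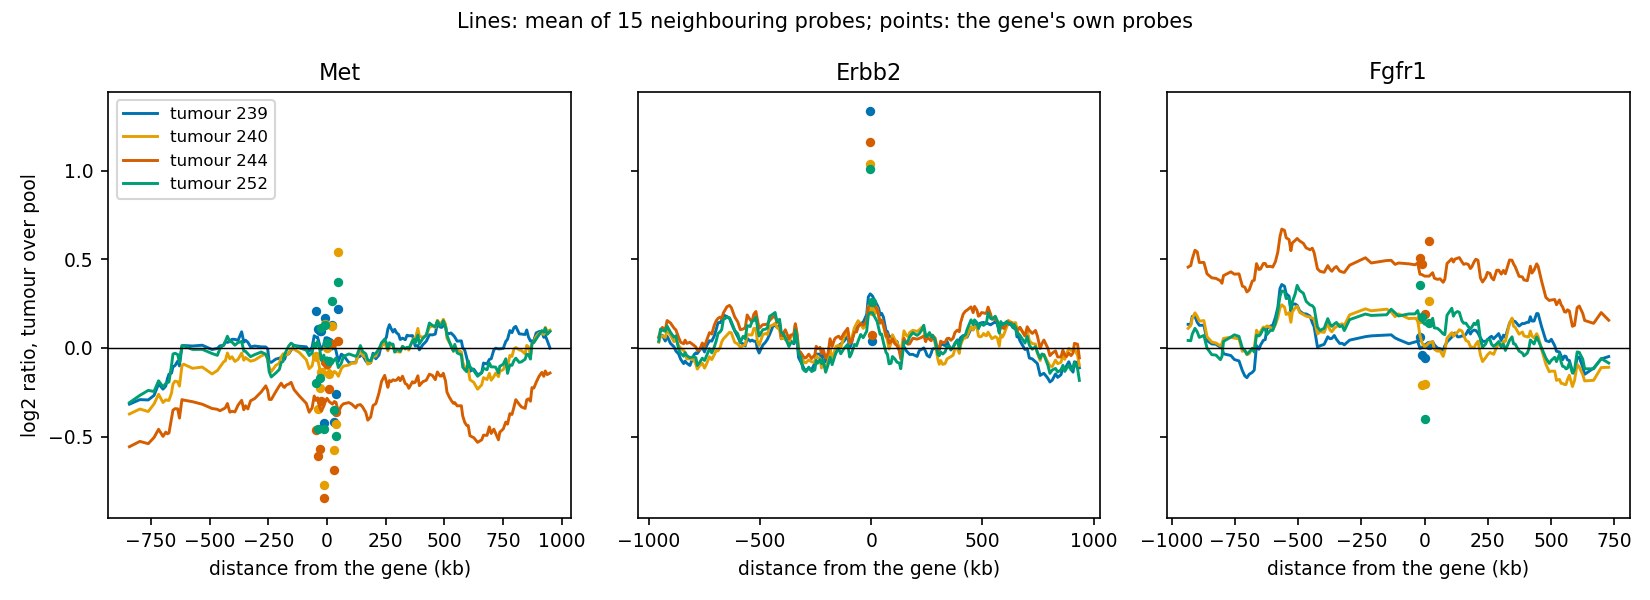
Log2 ratio of tumour over pool (vertical axis) against the distance from the gene in kb (horizontal axis) for Met, Erbb2 and Fgfr1. Lines are running means of 15 probes in each tumour and points the gene's own probes. Around Met and Fgfr1 the line of tumour 244 lies apart along nearly all of the window, while at Erbb2 the 4 lines run together and the first probe stands above them, at 1.01 to 1.34.

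The 4 fibroblast growth factor receptors differed from one another, and none was called above its neighbourhood. Fgfr1, on chromosome 8, was high in 1 tumour, and there its surroundings were too. Its 4 probes, in chr8:26637492-26673714, averaged -0.00, 0.00, 0.45 and 0.07, on average 0.13 ± 0.21 (SD, n = 4; limma adjusted p = 0.287). The 151 probes of its neighbourhood gave 0.06, 0.05, 0.41 and 0.07, and the whole chromosome -0.09, -0.03, 0.33 and -0.08. The gain in tumour 244 thus covered far more than Fgfr1. Over its neighbours the gene had an excess of -0.06, -0.05, 0.03 and -0.01, with a mean of -0.02 and a 95% interval of -0.10 to 0.06 (limma adjusted p = 0.638). All 4 Fgfr1 probes were above 0 in tumour 244, at 0.51, 0.48, 0.19 and 0.60.

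Fgfr2, whose product is the receptor for several fibroblast growth factors of epithelia, was read by 11 probes in chr7:137307287-137407123. The gene averaged 0.13, -0.02, -0.26 and -0.02, and its neighbourhood 0.10, 0.10, -0.14 and 0.08. Tumour 244 was again the low one in both. The local excess was 0.04, -0.12, -0.13 and -0.10, with a mean of -0.08 and a 95% interval of -0.18 to 0.02 (limma adjusted p = 0.154). Its first 2 probes had a mean excess of -0.58 and -0.60, and the other 9 ran from -0.26 to 0.22. Without tumour 239 the mean was -0.12 and passed the test (limma adjusted p = 0.0295). The direction turned with normexp, where the mean excess was 0.14 and passed the test (limma adjusted p = 0.0133).

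Fgfr3 had the highest local excess after Erbb2, but it was small and uneven. Its 2 probes, in chr5:34069504-34075761, averaged 0.01, 0.21, 0.36 and 0.15, on average 0.18 ± 0.15 (SD, n = 4; limma adjusted p = 0.0829). The local excess was -0.03, 0.15, 0.23 and 0.05, a mean of 0.10 with a 95% interval of -0.02 to 0.22 (limma adjusted p = 0.152). The first probe read -0.03, 0.01, 0.13 and -0.01, and the second 0.05, 0.41, 0.59 and 0.31, so the excess came from the second. With normexp the mean excess was -0.05. Letm1, the gene for a mitochondrial protein that lies next to Fgfr3, averaged -0.04 ± 0.05 on 6 probes (SD, n = 4).

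Fgfr4 encodes the main fibroblast growth factor receptor of hepatocytes, through which Fgf15 from the gut holds down bile acid synthesis. Its 2 probes, in chr13:55255509-55263539, averaged -0.17, -0.23, -0.41 and -0.18, on average -0.25 ± 0.11 (SD, n = 4; limma adjusted p = 0.0232). The neighbourhood was at -0.01, -0.03, -0.25 and 0.11. The local excess was -0.17, -0.19, -0.15 and -0.29, with a mean of -0.20 and a 95% interval of -0.29 to -0.11 (limma adjusted p = 0.00732). Here the 2 probes were alike, at a mean excess of -0.17 and -0.22. Without tumour 252 the mean was -0.17 (limma adjusted p = 0.0314). The gene's own ratio did not pass without tumour 240 (limma adjusted p = 0.0882). With normexp the mean excess was 0.08 (limma adjusted p = 0.0531), so the direction turned under this alternative. Normexp started from raw mean and background intensity, without the software's detrending and dye levelling. Which of these steps turned the direction was not tested. Nsd1, a histone methyltransferase gene on one side, averaged -0.19 ± 0.14 over 11 probes, and Zfp346, a zinc finger gene on the other, 0.10 ± 0.15 over 3 (SD, n = 4).

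Braf, the RAF kinase most often mutated in human cancer and in some chemically induced mouse liver tumours, lies with Met on chromosome 6. Its 12 probes, in chr6:39554471-39668569, averaged -0.09, -0.10, -0.26 and -0.02, on average -0.12 ± 0.10 (SD, n = 4; limma adjusted p = 0.192). Its neighbourhood gave -0.02, -0.04, -0.26 and -0.01. As with Met, the low value of tumour 244 was shared by the surroundings. Over them Braf had an excess of -0.06, -0.06, 0.00 and -0.01, a mean of -0.03 with a 95% interval of -0.11 to 0.05 (limma adjusted p = 0.432). Single Braf probes ran from -0.56 to 0.56 in mean excess, 4 above and 6 below the neighbourhood on every array. With normexp the mean excess was -0.27 and passed the test (limma adjusted p = 0.000444).

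Across the 69 probes of the 9 genes, a probe's own offset was larger than the difference between tumours. The SD between probes of the mean excess was 0.34, and the SD between tumours within a probe was 0.15. Of the 69 probes, 19 were above and 21 below their neighbourhood on every array, 27.5% and 30.4%, against 31.6% and 29.0% of all probes. Those 0.5 or more above on every array numbered 1, the first of Erbb2, and those 0.5 or more below numbered 3, 1 each in Hgf, Egfr and Braf. These are 1.45% and 4.35%, against 1.05% and 2.73% of all probes. Between pairs of arrays, the excess of the 69 probes correlated at 0.75 to 0.91, and that of all 170260 probes at 0.72 to 0.86. Each pair of arrays shares the pool, the slide and the probe sequences.

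**Figure D3:**
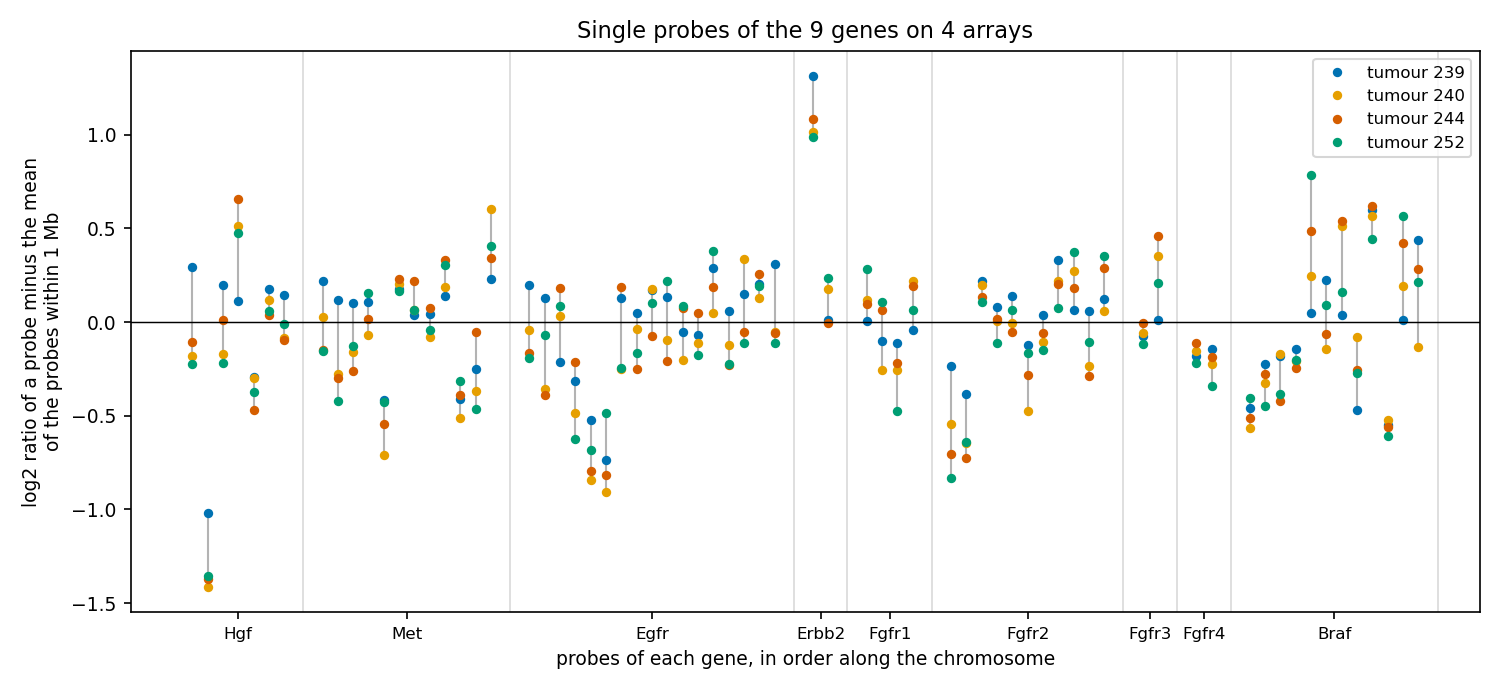
Log2 ratio of each probe minus the mean of the probes within 1 Mb (vertical axis) for the 69 probes, in order along the chromosome within each gene (horizontal axis). Points are the 4 tumours and a grey line joins the points of a probe. Most lines are short beside the differences between probes, and the first Erbb2 probe at 1.10 and the second Hgf probe at -1.29 stand farthest out on all 4 arrays.

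Tumours were also compared with one another. The excess in a tumour minus the mean excess in the other 3 takes out what the arrays share. By this measure the largest value among the 9 genes was 0.18, for Fgfr3 in tumour 244, and 41.0% of all genes were as far out in some tumour. Among genes with as many probes, 49.5% were. Hgf reached 0.17, Egfr 0.16 and Fgfr2 0.16, all in tumour 239. As far out in some tumour were 44.0%, 47.1% and 47.9% of all genes, and 10.7%, 6.90% and 8.80% of genes with as many probes. For Erbb2 the 4 values were 0.08, -0.01, -0.08 and 0.01. A value of 0.3 or more in size was found in 14.1% of all genes and in none of the 9. With normexp the value of Fgfr3 was 0.05.

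**Figure D4:**
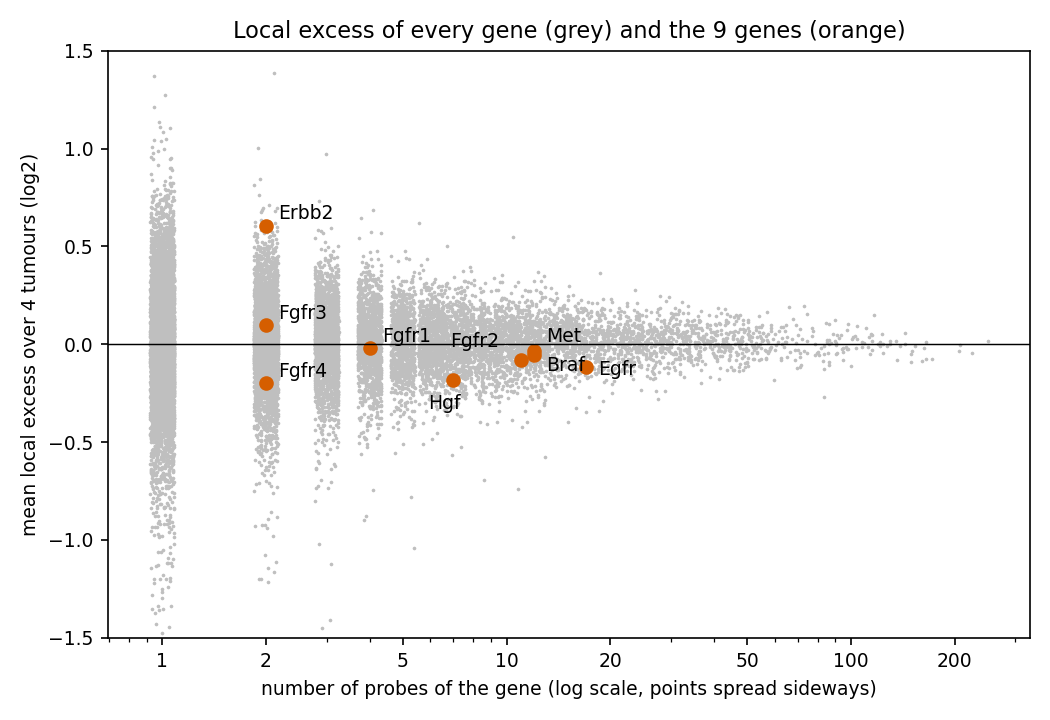
Mean local excess over 4 tumours (vertical axis, log2) against the number of probes of a gene (horizontal axis, log scale) for all genes in grey and the 9 genes in orange. Genes beyond 1.5 in size are outside the axis, and points are spread sideways so that they can be told apart. The spread widens as probes become fewer, and Erbb2 at 0.61 lies near the upper edge of the genes with 2 probes.

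For those of the 9 genes with 3 or more probes, the genes most like them in their 4 values were sought. Candidates lay on other chromosomes and had 5 or more probes. No such search was made for Erbb2, Fgfr3 and Fgfr4. For Met the nearest was Igf1, the liver's own growth factor, at -0.01, -0.18, -0.35 and -0.12. It was 0.03 away as a Euclidean distance over the 4 tumours. For Fgfr1 it was Crem, a cAMP-responsive transcription factor, at 0.01, 0.00, 0.40 and 0.08. The nearest to Hgf, Egfr, Braf and Fgfr2 were Epn2, Pcdh17, Syne1 and Bcl2l14, at distances of 0.03 to 0.07. Each was the nearest of 5042 to 5174 candidates on 4 values, and how near other genes find theirs was not tested. A short distance therefore shows no link between the genes.

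The rest of the pathway was followed in 5 lists of 93 genes: ligands and their processing, other receptor kinases and co-receptors, adaptors and exchange factors, the RAS, RAF, MEK and ERK genes, and inhibitors. Of these 86 had probes. Local excess was called above 0 in 20 and below 0 in 20, and 46 did not pass, shares of the same order as the 25.3% and 22.4% of all genes. The median of the 86 genes was 0.00. The highest value of the lists was that of Fgfrl1, a receptor without a kinase domain, at 0.64 on 1 probe, and the lowest that of Spry4, an inhibitor of RAS signalling, at -0.93 on 1 probe. Both were chosen after their values were seen. With tumour 252 left out 14 genes were called above and 14 below.

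Among 30 ligands and processing genes with probes, 6 were called above and 9 below, where 25.3% and 22.4% of all genes were. Pdgfb, a platelet-derived growth factor, read -0.44, -0.75, -0.82 and -0.89 in local excess on 3 probes, a mean of -0.73 (limma adjusted p = 0.00149). Spint2, an inhibitor of the protease that activates hepatocyte growth factor, averaged -0.46 ± 0.15 on 3 probes. Egf, the ligand of Egfr, averaged -0.28 ± 0.07 on 6. Fgf18 averaged -0.25 ± 0.10 and Vegfa, the vascular growth factor, -0.19 ± 0.07, while Fgf9 was above, at 0.17 ± 0.08 (SD, n = 4).

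Of 24 other receptors, 7 were called above and 6 below, beside 25.3% and 22.4% of all genes. Erbb3, the partner of Erbb2, averaged -0.24 on 3 probes, with 0.01 in tumour 239 and -0.34, -0.31 and -0.31 in tumours 240, 244 and 252 (limma adjusted p = 0.0284). The endothelial receptor Flt4 averaged -0.24 ± 0.07. The receptors Pdgfrb and Ret averaged 0.21 ± 0.10 and 0.19 ± 0.06 (SD, n = 4). The values of Ret were 0.19, 0.18, 0.13 and 0.26.

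Of 9 adaptors and exchange factors, 3 were called above and 1 below, beside 25.3% and 22.4% of all genes. Sos1, the exchange factor that loads RAS with GTP, averaged 0.18 ± 0.06 on 9 probes, and Gab1, a docking protein of Met, 0.18 ± 0.07 on 12 (SD, n = 4). In the RAS, RAF, MEK and ERK list 1 of 11 was called above and 1 below, beside the same shares of all genes. Ksr1, a scaffold for RAF and MEK, averaged 0.24 ± 0.05 on 13 probes (SD, n = 4). Map2k1, a MEK kinase gene, and Shoc2, a scaffold of RAS signalling, were not called, at 0.07 and -0.03.

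Of 12 inhibitors, 3 were called above and 3 below, beside 25.3% and 22.4% of all genes. Lrig1, which lowers receptor levels of the Egfr family, averaged 0.27 ± 0.06 on 12 probes (SD, n = 4). Nf1, the RAS GTPase activator, averaged 0.04 on 24 probes and Cbl, the ubiquitin ligase of receptor kinases, 0.08 on 9, and neither was called. Of the list genes named here as called on 3 or more probes, Erbb3 and Fgf9 did not pass without tumour 252 (local excess -0.21 and 0.18, limma adjusted p = 0.100 and 0.0575), and the others did. Without tumour 240, Erbb3, Fgf9 and Pdgfrb did not pass (-0.21, 0.14 and 0.21), and without tumour 244, Erbb3, Sos1 and Gab1 did not (-0.21, 0.16 and 0.15), at an adjusted p of 0.0508 to 0.108.

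Of all genes with 3 or more probes, 0.355% reached an excess of 0.58 in some tumour. Of the 6 receptor, ligand and kinase genes among the 9 with 3 or more probes, none did.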

How the data were processed

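Genomic DNA of 4 tumours was measured on 4 arrays of 1 slide and scan, tumour in Cy5 and pool in Cy3 per the labels, with no dye swap. Agilent Feature Extraction 12.0.0 read the scans, per the submitters' processing notes. Per the file headers, the software subtracted background from the processed intensity, detrended it and set the dyes to one level linearly, and raw mean and background intensity are scanner brightness. The deposited log10 ratio and the authors' value table hold log10 of tumour over pool per spot, with column medians of 0.0023, 0.00233, 0.00131 and 0.000212. Spot flags (other values), per the file headers, mark outliers and signal over background. Positions are mm9, per the file headers.

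Of 180880 spots per array, 6575 controls and 95 to 120 outlier-flagged spots were dropped. Repeat spots were averaged per probe, and log2 of processed tumour over pool intensity was centred on the median of chromosomes 1 to 19, with no loess or quantile step. A neighbourhood needed 20 probes. Intercept-only fits used limma 3.58.1 in R 4.3.3, and other steps Python 3.11.15 with pandas 2.3.3, numpy 2.4.6, statsmodels 0.14.6, scipy 1.17.1 and matplotlib 3.10.9. On simulated data, limma recovered 50, 49, 17 and 0 of 50 gene shifts of 1.6, 0.8, 0.4 and 0.2, and for local excess 50, 50, 46 and 5 of 50. It called 0 unchanged genes, but offsets shared by the arrays were not simulated. Of 18699 gene names, 15443 matched a current and 702 an older RefSeq symbol (GRCm38.p6, names only), and 2554 were kept.

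The genes and lists were chosen with earlier results of these data known. Named besides the 9 genes were list genes called with 3 or more probes (at most 15, by size), nearest neighbours and most similar genes. Some list genes are not reported here. Others are named by list role or said to be chosen after their values. Alternatives covered centring on the mode, normexp (offset 50), the authors' value table, lowess, probes well above background, robust variances, 3 or more probes, the median, windows of 0.5 and 2 Mb and the rest of the chromosome, and leaving out each tumour. The GC correction and leaving out probes 0.5 from their neighbours on all arrays were added after the data were seen. The latter picks probes by these same values, so it is no separate check of a call that rests on such a probe. The number of arrays, 4, limits the precision.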

Additional observations from a re-analysis of the deposited data

Results flagged for a closer look

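For 42 results a tumour's distance from the nearest of the other 3 was set against the range, and 8 passed Dixon's 95% critical value. Chance gives about 1 in 20 for a single result. The 42 results are not independent, since values of a tumour share its chromosomes and its centring, so the 8 are not separate events. Tumour 244 stood apart in 6 of them. Its neighbourhood of Met was at -0.3022, that of Braf at -0.2634, that of Fgfr2 at -0.1355, that of Fgfr1 at 0.4108 and that of Erbb2 at 0.0742, and its Fgfr1 gene value was 0.4452. In the other 3 tumours these values lay within -0.06 to -0.01, -0.04 to -0.01, 0.08 to 0.10, 0.05 to 0.07, 0.02 to 0.02 and -0.00 to 0.07. Tumour 239 stood apart in the local excess of Fgfr2, at 0.0383 against -0.13 to -0.10 in the others, and in that of Erbb3, at 0.0121 against -0.34 to -0.31. Centring on the mode would lower every gene and neighbourhood value of tumour 244 by 0.11.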

How the results depend on the processing

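No paired analysis was possible because the tumours form 1 group, each set against the same pool. Of 423 alternative values of single genes, 366 kept direction and side of the threshold, 16 passed it newly, 19 no longer passed and 22 changed sign.

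Of 9 genes, those called by own log2 ratio numbered 3 as reported, 1 among genes with 3 or more probes, 1 without probes far from their neighbours on all arrays, and 1 to 2 with a tumour left out. By local excess they numbered 3 as reported, 5 with lowess, 5 against the rest of the chromosome, 1 without far probes, and 2 to 5 with a tumour left out (5 without tumour 239). By neighbourhood they numbered 0, and 0 to 1 with a tumour left out (Fgfr2, 0.094, without tumour 244).

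Over all genes, own log2 ratios called above 0 numbered 3299, and 1278 with 3 or more probes. Those below numbered 2824, 1034 with 3 or more probes and 4592 with normexp. With a tumour left out they were 1666 to 2755 above and 1462 to 2445 below, lowest without tumour 240. Neighbourhoods above 0 numbered 1012, 411 with 3 or more probes, 574 with the mode and 526 with normexp. Those below numbered 699, 362 with 3 or more probes and 255 with the mode. With a tumour left out they were 0 to 2523 above and 0 to 1762 below, 0 by limma without tumour 239 or 252 (2311 and 1862 above and 1263 and 2134 below at an unadjusted p under 0.05) and highest without tumour 244. Local excess called 4733 above and 4189 below, 2436 and 2052 with 3 or more probes, and 3014 to 4911 and 2638 to 4761 with a tumour left out, lowest for both without tumour 244. Pathway genes were called above 20 times, 10 with 3 or more probes and 12 to 21 with a tumour left out (12 without tumour 240). They were called below 20 times, 12 with the median and 11 to 27 with a tumour left out (11 without tumour 240). With 3 or more probes fewer genes are tested, and otherwise the cause was not tested. The excess of Fgfr3 particular to tumour 244 was 0.046 with normexp.

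Signs turned for own log2 ratio in Fgfr2 (-0.10 to 0.031 with a tumour left out, above 0 without tumour 244, 0.081 with normexp, 0.0081 with the median) and Fgfr3 (-0.080 with normexp). For the neighbourhood they turned in Hgf (0.016 with the GC correction, 0.0089 with the median, 0.032 on the rest of the chromosome), Egfr (0.013 at 0.5 Mb, 0.029 on the rest of the chromosome), Fgfr2 (-0.060 with normexp, -0.065 on the rest of the chromosome), Fgfr3 (-0.033 with normexp) and Fgfr4 (-0.098 to 0.022 with a tumour left out, above 0 without tumour 244). For local excess they turned without far probes in Hgf (0.0027) and Braf (0.0056), with normexp in Fgfr1 (0.026), Fgfr2 (0.141), Fgfr3 (-0.047) and Fgfr4 (0.084), with the median in Fgfr1 (0.013), and against the rest of the chromosome in Fgfr1 (0.095) and Fgfr2 (0.023). The cause was not tested.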
